A study of Mus musculus with 6 samples.

Results

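Astrocytes are the glial cells that clear glutamate from synapses, buffer water and ions around neurons and vessels, and supply neurons with lactate and glutamine. The astrocyte genes followed here are Gfap, Aqp4, Slc1a2, Slc1a3, Aldoc, S100b, Gja1, Fgfr3 and Sox9, chosen by name, with every probe set that the platform annotation gives to one of these genes alone. Of the 9 genes, 7 were found, with 11 probe sets, among 8251 named genes on the array. Gfap, Aqp4, Gja1 and Fgfr3 had 2 probe sets each, and Slc1a2, Aldoc and S100b had 1 each. Slc1a3, a glial glutamate transporter, and Sox9, a transcription factor of the glial lineage, were not matched and are not analysed here.

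Hippocampus total RNA, from a study of HuD overexpressor mice (HuD, the product of Elavl4, binds neuronal mRNAs), was profiled on 6 oligonucleotide arrays of 12488 probe sets. The labels say that all 6 samples are hippocampus, and they give no genotype, treatment, age or sex, so no sample is called transgenic or control and no difference between samples has a replicate check. Samples are called 1 to 6 after their titles. The promoter that drives the transgene, and whether animals were pooled, are not stated in these sources. Each tissue sample holds all hippocampal cell types, so fewer astrocytes and less RNA per astrocyte cannot be told apart.

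Values are the deposited signal intensities, which are linear and all above 0. Array medians ran from 59.9 to 63.3. For comparison across arrays each signal was divided by its array's median and turned to log2, so that 0 is the array median. The range of a gene is its highest minus its lowest log2 value over the 6 samples. A gene counts as expressed when its median lies above 0, which held for 4838 genes and for all 7 matched astrocyte genes, each taken at its brightest probe set. Signals under the array median are not shown to be above background. Levels of different probe sets are not set against each other.

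Sample 3 was where 5 of the 7 astrocyte genes lay farthest from their own median, as did 22.8% of the expressed genes. It held the highest Gfap signal and the lowest Aqp4 and Slc1a2 signals. Of the expressed genes 31.1% were highest and 11.1% lowest in that sample. Among 50 further astrocyte genes the shares were 24.0% and 8.0%. Gja1 and Aldoc were nearly level across the 6 samples. Fgfr3 had the widest range of the 7, on a probe set that lay under the array median in some samples. The median range of the 7 genes was 0.62, against 0.40 over all expressed genes, and without sample 3 it was 0.35, against 0.36.

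Sequence around the annotated start is shown for the Gfap and Aldoc genes, which were both highest in sample 3 and whose RefSeq promoter windows hold the palindromic core TTCNNNGAA that STAT factors, including the STAT3 of reactive astrocytes, are known to bind. The windows run from 250 bases before to 50 after the start, in GRCm38.p6, and capitals mark the motif. The Gfap window is chr11:102897151-102897450 on the minus strand, with 1 match that begins 2 bases before the start. The Aldoc window is chr11:78323948-78324247 on the plus strand, with matches that begin 124 and 83 bases before the start, and it belongs to the second of its annotated starts.
Gfap: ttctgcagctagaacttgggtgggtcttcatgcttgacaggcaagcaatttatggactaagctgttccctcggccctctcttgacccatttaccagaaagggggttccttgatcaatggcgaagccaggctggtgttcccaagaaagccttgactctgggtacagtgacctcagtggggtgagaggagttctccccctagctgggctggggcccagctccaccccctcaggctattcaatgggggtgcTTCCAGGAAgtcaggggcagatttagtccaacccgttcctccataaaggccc
Aldoc: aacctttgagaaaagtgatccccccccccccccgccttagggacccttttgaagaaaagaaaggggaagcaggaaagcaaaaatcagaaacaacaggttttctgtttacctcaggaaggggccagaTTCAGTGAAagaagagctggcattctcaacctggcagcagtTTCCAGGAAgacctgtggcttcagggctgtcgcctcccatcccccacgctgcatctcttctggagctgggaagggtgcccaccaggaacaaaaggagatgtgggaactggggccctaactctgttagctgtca
Windows on an excluded chromosome were dropped, which left 9 windows for 7 of the listed genes. Of the 9 windows 3 had a match, the other one being that of Slc1a3. Aqp4 and Sox9 have no window here. Of all 32851 windows, 8.30% had a match. S100b, which was also highest in sample 3, had none in its window, nor had Slc1a2, Gja1 and Fgfr3. The window at the first annotated Aldoc start had none either. Of the expressed genes 31.1% were highest in sample 3, and Aldoc ranged only 1.17-fold. The motif reads the same on both strands, and a match is a description of letters, not of binding.

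Gfap encodes the glial fibrillary acidic protein, the intermediate filament of mature and reactive astrocytes. Its brighter probe set, 94144_g_at, had signals of 336, 440, 564, 438, 459 and 420 in samples 1 to 6. Sample 1 was low, sample 3 was high, and the other four lay between 420 and 459. The range was 0.81 on the log2 scale, or 1.76-fold, and 8.87% of the expressed genes ranged wider. Ranges were narrower among bright genes, and of the 200 expressed genes closest to this probe set in mean level only 2.00% ranged wider, with a median range of 0.34. The dimmer probe set, 94143_at, had signals of 76.5, 124, 147, 101, 100 and 106, again with sample 1 at the bottom and sample 3 at the top, and ranged 2.01-fold. The names have adjacent numbers, and the brighter has a g in its suffix. Whether the 2 probe sets read separate parts of the transcript was not examined. Among 622 genes with 2 expressed probe sets, 47 (7.56%) had the highest sample and the lowest sample in common between these, and of the 3 astrocyte genes that could be so compared, Gfap did and Aqp4 and Gja1 did not. The Gfap range was 0.44 without sample 3 and 0.49 without sample 1.

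Aqp4 encodes aquaporin-4, the water channel of astrocyte endfeet. Probe set 102704_at had signals of 718, 769, 502, 807, 747 and 812 in samples 1 to 6. Sample 3 stood alone below the others, 0.45 on the log2 scale under the next lowest sample, and the other five lay within 0.18 of each other. The full range was 0.62, or 1.54-fold, and 19.9% of the expressed genes ranged wider, or 9.0% of the 200 closest in level. The dimmer probe set, 102703_s_at, showed the same sample apart, with signals of 262, 258, 170, 310, 260 and 304 and a gap of 0.54 to the next lowest sample. Its range was 0.79, and 0.25 without sample 3. Whether this probe set, with an s in its suffix, is specific to Aqp4 was not examined. Of the expressed genes 0.599% had sample 3 apart on the low side by the same measure, a gap to the nearest sample beyond Dixon's 95% critical value. That sample and side were taken from the Aqp4 values, and with any sample apart on either side the share was 5.89%. The lowest sample was the same for the probe sets of Gfap, Aqp4 and Gja1, 3 of 3 astrocyte genes with 2 expressed probe sets, and for 24.0% of all 622 such genes. The Aqp4 probe sets differed in the highest sample, which was 6 for the brighter and 4 for the dimmer.

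The Slc1a2 gene encodes GLT-1, the main glutamate transporter of forebrain astrocytes. Its probe set, 96202_at, was dim, with signals of 61.3, 90.1, 57.0, 95.7, 121 and 92.3 in samples 1 to 6. Samples 1 and 3 lay just under the array median and 0.59 on the log2 scale under the next sample, and sample 5 was highest. The range was 1.01, or 2.01-fold, and 1.91-fold once the signals of samples 1 and 3 were raised to the array median. It was 0.67 without sample 5 and 0.97 without sample 3. Of the expressed genes 3.93% ranged wider, but of the 200 closest in level 12.0%. The 5' probe set of the pyruvate carboxylase control had signals of 77.5, 99.1, 64.0, 103, 132 and 78.9 in the same samples, likewise lowest in samples 3 and 1 and highest in sample 5. The 3' probe set of that control ran otherwise, at 182, 156, 228, 202, 213 and 206, and was highest in sample 3. The 3' to 5' ratio of that control, a sign of RNA or labelling quality, was 3.56 in sample 3 and between 1.57 and 2.61 in the other samples. Its part in the Slc1a2 values was not tested. Samples 3 and 1 were the lowest pair and sample 5 the highest for 91 of the 4838 expressed genes (1.88%). That order was taken from the Slc1a2 values, so the share is no measure of how unusual it is.

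S100b, a calcium-binding protein released by astrocytes, had signals of 206, 184, 226, 184, 198 and 162 in samples 1 to 6. Sample 3 was highest and sample 6 lowest, and the values between were closely spaced. The range was 0.55, or 1.46-fold, and 27.7% of the expressed genes ranged wider. It was 0.35 without sample 3 and 0.38 without sample 6.

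Aldoc, the brain aldolase of astrocyte glycolysis, had signals of 2758, 2621, 2888, 2657, 2609 and 2593 in samples 1 to 6. Sample 3 was highest again, by 0.13 over the next sample on the log2 scale, and the other five lay within 0.09. The range of 0.22, or 1.17-fold, was wider in 86.8% of the expressed genes, and in 67.0% of the 200 closest in level.

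Gja1 encodes connexin 43, the gap junction protein that couples astrocytes. Its brighter probe set, 100064_f_at, had signals of 1600, 1609, 1640, 1777, 1667 and 1679 in samples 1 to 6, and the dimmer 100065_r_at had 150, 174, 180, 166, 162 and 165. Sample 1 was lowest in both, and the highest was sample 4 in the brighter and sample 3 in the dimmer. The range of the brighter probe set was 0.14, or 1.10-fold, and 97.9% of the expressed genes ranged wider. By the manufacturer's naming, the f in the first name marks probes shared within a sequence family and the r in the second marks relaxed probe rules, so neither is shown to be specific to Gja1.

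Fgfr3 encodes a fibroblast growth factor receptor of astrocytes and their progenitors. Probe set 162253_i_at had signals of 39.2, 127, 72.9, 63.3, 146 and 28.8 in samples 1 to 6. Samples 2 and 5 were high, samples 1 and 6 were low, and 3 of the 6 samples lay above the array median. The range of 2.34 on the log2 scale was exceeded by 14 of the 4838 expressed genes, and it fell to 1.21 once the signals below the array median were raised to that median. The other probe set, 160919_r_at, lay below the median of every array, with signals of 18.9, 13.4, 13.7, 13.7, 11.2 and 14.4, and ran otherwise, with sample 1 at the top and sample 5 at the bottom. The i and r in these names mark an incomplete probe set and relaxed probe rules. The Fgfr3 values therefore have no second reading above the array median.

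**Figure D1:**
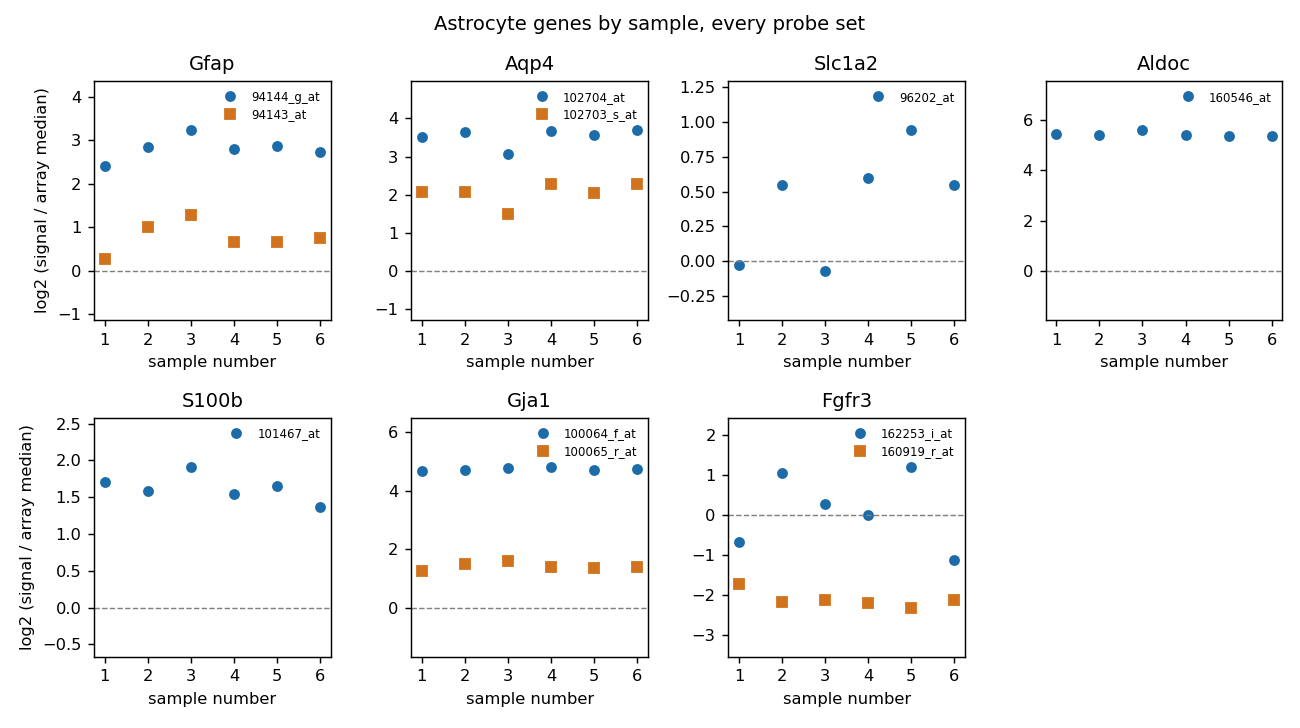
Log2 of signal over the array median (vertical axis, own scale in each panel) for every probe set of the 7 astrocyte genes in samples 1 to 6 (horizontal axis). Each point is 1 array, circles are the brighter and squares the dimmer probe set, and the dashed line is the array median. Sample 3 is highest for Gfap (3.23 and 1.29) and lowest for Aqp4 (3.07 and 1.5).

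Ranges above 1, that is, a highest sample more than 2 times the lowest, were found for 2 of the 7 genes, Slc1a2 and Fgfr3. Over all expressed genes the share was 4.13%. Both were read by dim probe sets, which does not show that the transcripts were scarce, and for Slc1a2 the range was only just past 1. Of the 7 genes, 5 ranged wider than the median expressed gene, the exceptions being Aldoc and Gja1.

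**Figure D2:**
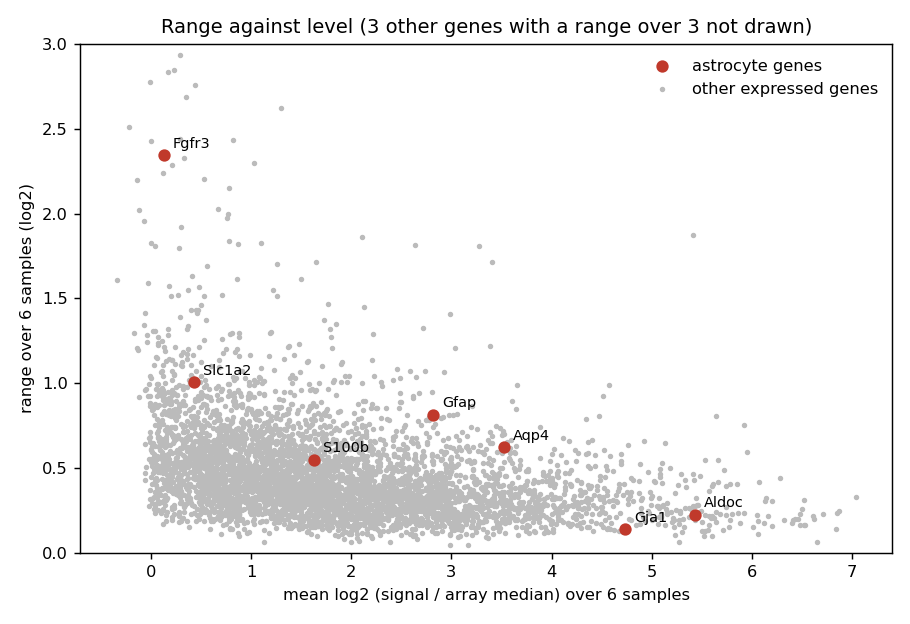
Range over the 6 samples (log2, vertical axis) against mean log2 signal over the array median (horizontal axis) for the expressed genes, each point 1 gene. Red points are the 7 astrocyte genes and grey points the other expressed genes, of which 3 lie above the axis. Ranges are wider among dim genes, Gfap (0.81) and Aqp4 (0.62) lie in the upper part of their level, and Gja1 (0.14) lies near the lower edge.

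Sample 3 was the sample in which most of the 7 genes lay farthest from their median. Gfap, Aqp4, Slc1a2, Aldoc and S100b, 5 of 7, lay farthest from their own median in that sample, as did 22.8% of the expressed genes. The deviations there were 0.42 for Gfap, 0.29 for S100b, 0.19 for Aldoc, -0.54 for Aqp4 and -0.63 for Slc1a2. They thus had both signs, and the genes did not move as a group. Gja1 and Fgfr3 deviated by 0.04 and 0.14. In sample 1 Gfap and Slc1a2 deviated nearly as far, by -0.40 and -0.59. Without sample 3 the ranges of Slc1a2, Gja1 and Fgfr3 were 0.97, 0.14 and 2.34, against 1.01, 0.14 and 2.34 with it. Gfap, Aldoc and S100b, 3 of 7, were highest in sample 3, where 31.1% of the expressed genes were highest, so that count is near the background. Aqp4 and Slc1a2, 2 of 7, were lowest there, against 11.1% of the expressed genes. Sample 6 was lowest for Aldoc, S100b and Fgfr3, against 15.0% of the expressed genes. In sample 1, which was lowest for Gfap and Gja1, the share of the expressed genes was 21.6%. These counts of samples were looked at after the values had been seen. The transferrin receptor control also had its highest 3' to 5' ratio in sample 3, at 3.47, while those of beta-actin and Gapdh were highest in sample 1 (1.27 and 0.86). The part of RNA quality in the sample 3 values was not tested.

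**Figure D3:**
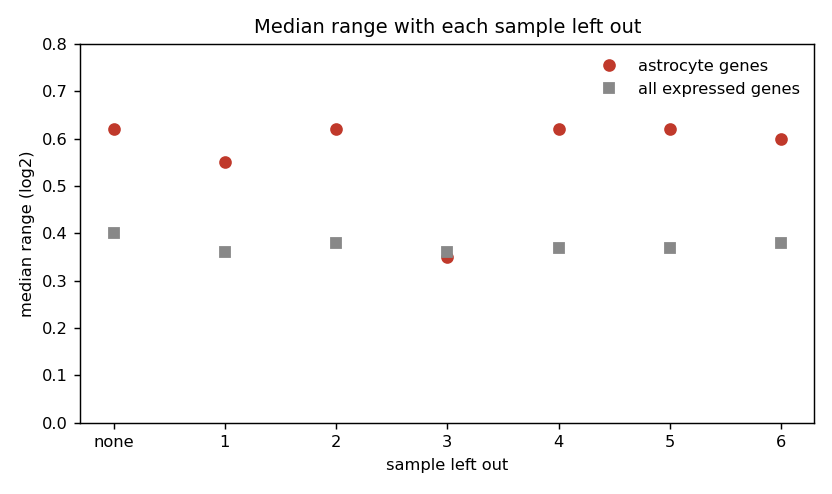
Median range (log2, vertical axis) of the 7 astrocyte genes (red circles) and of all 4838 expressed genes (grey squares) with no sample or each sample in turn left out (horizontal axis). The astrocyte median lies between 0.55 and 0.62 except without sample 3, where it is 0.35, next to 0.36 for all expressed genes.

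Other astrocyte genes came from a list of 85 genes in 8 roles, of which 68 were on the array under a symbol of their own and 50 were expressed. None of the 50 had a range over 1, against 4.13% of the expressed genes, so for 50 genes that count is near the background. Their median range was 0.40, which is that of all expressed genes. Sample 3 was highest for 24.0% of the 50 and lowest for 8.0%, against 31.1% and 11.1% of the expressed genes.

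Genes of glutamate and amino acid handling had a median range of 0.46 over 3 genes. Glul, the glutamine synthetase that turns the glutamate taken up by GLT-1 into glutamine, had signals of 439, 506, 511, 519, 565 and 499 in samples 1 to 6. Like Slc1a2 it was highest in sample 5, but sample 3 was not low. Gldc, the glycine decarboxylase, ranged 1.48-fold and Glud1, the glutamate dehydrogenase, 1.37-fold.

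Water, ion and gap junction genes had a median range of 0.48 over 4 genes, or 0.23 with the mean of the probe sets of each gene. Slc4a4, a sodium bicarbonate cotransporter of astrocytes, had signals of 150, 177, 92.7, 182, 180 and 172 in samples 1 to 6. Sample 3 was far below the other five, as it was for Aqp4, and the range was 0.90 on the log2 scale. Atp1b2, a sodium pump subunit of glia, ranged 1.41-fold and was highest in sample 5. Gjb6, connexin 30, which forms astrocyte gap junctions beside Gja1, ranged 1.38-fold, with 235 in sample 1 and 172 in sample 4.

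Intermediate filament and reactive genes gave no parallel to Gfap. Of 12 on the array 6 were expressed, with a median range of 0.48, or 0.30 with the mean of the probe sets of each gene. After scaling 2 of the 6, Nes and S1pr3, were highest in sample 3, near the 31.1% of the expressed genes. Vim, the vimentin that assembles with Gfap, lay below the median of every array, at 39.7, 40.8, 38.5, 38.0, 49.2 and 9.19. The reactive genes Cd44, Cxcl10, Osmr, Hspb1 and Cp were also under the array median throughout. Serpina3n, a protease inhibitor that marks reactive astrocytes, was level, between 355 and 414. Lcn2, the lipocalin of reactive astrocytes, had signals of 49.2, 67.9, 58.3, 72.7, 57.3 and 71.7 and straddled the array median. Timp1, a metalloprotease inhibitor, ranged 1.54-fold, with 227 in sample 4 and 147 in sample 5. Nes, the filament nestin of progenitors, ranged 1.33-fold, and S1pr3, a sphingosine phosphate receptor, 1.47-fold. Stat3 ranged 1.26-fold, with 262 in sample 4 and 205 in sample 6.

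Transcription and stem cell factors had a median range of 0.47 over 8 genes. The widest were Notch1, a receptor of progenitor maintenance, at 155 in sample 4 and 82.3 to 97.3 elsewhere, and Id3, an inhibitor of differentiation factors, at 309 in sample 6 and 183 to 220 elsewhere. Id4, of the same family, was the only factor with the order of Gfap at both ends, at 428 in sample 3 and 301 in sample 1. Of the expressed genes 6.39% had that order.

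Secreted and matrix genes had a median range of 0.27 over 10 genes. Apoe, the lipid carrier that astrocytes secrete, lay between 6077 and 7082. Sparc, a matrix protein, had the widest range of the 10, 1.65-fold, and was highest in sample 3 at 318. Ptprz1, a receptor phosphatase of astrocytes and their progenitors, followed with 1.47-fold and was lowest in sample 3 at 192.

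In metabolism and metallothioneins the median range was 0.42 over 11 genes, and 5 of the 11 were highest in sample 3 after scaling. Those 5 were Mt1, Mt2, Mt3, Pygb and Pygm. Sample 3 was highest for 31.1% of the expressed genes, so for 11 genes that count is near the background. Mt1 and Mt2 encode metal-binding proteins and had signals of 2402 and 2510 in sample 3, against 1838 to 2079 and 1910 to 2216 in the other five. Mt3, the brain metallothionein, had 3066 in sample 1 and 4425 in sample 3, the extremes that Gfap also had, but sample 5 was close at 4409. Mt2 had the same extremes, as did 6.39% of the expressed genes. Fabp7, the brain lipid-binding protein of radial glia and astrocytes, had the widest range, 1.54-fold, and was highest in sample 2 at 459.

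The other expressed FGF receptors and ligands ranged less than Fgfr3. Fgfr1 lay between 229 and 283, a range of 1.31-fold. Fgfr2 lay between 223 in sample 1 and 320 in sample 5, a range of 1.43-fold, and had its highest sample in common with Fgfr3. The ligand Fgf1 ranged 1.20-fold. Fgf2, Fgf8, Fgf9, Fgf18 and Fgfr4 lay below the median of every array. Of these Fgf18 had signals of 44.4 in sample 1 and 7.65 in sample 2. It ranged 3.53-fold once sample 2 was raised to the floor of 0.2 of the array median. Among S100 and aldolase paralogs the median range was 0.35 over 5 genes. None of the 5 had its lowest value in sample 6 as S100b and Aldoc did. The share of the expressed genes was 15.0%, so for 5 genes that count is near the background. S100a10 and S100a6 ranged 1.42-fold and 1.41-fold and were lowest in sample 5, as were S100a1, S100a13 and 20.0% of the expressed genes. Aldoa, the ubiquitous aldolase, ranged 1.17-fold and was lowest in sample 4.

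**Figure D4:**
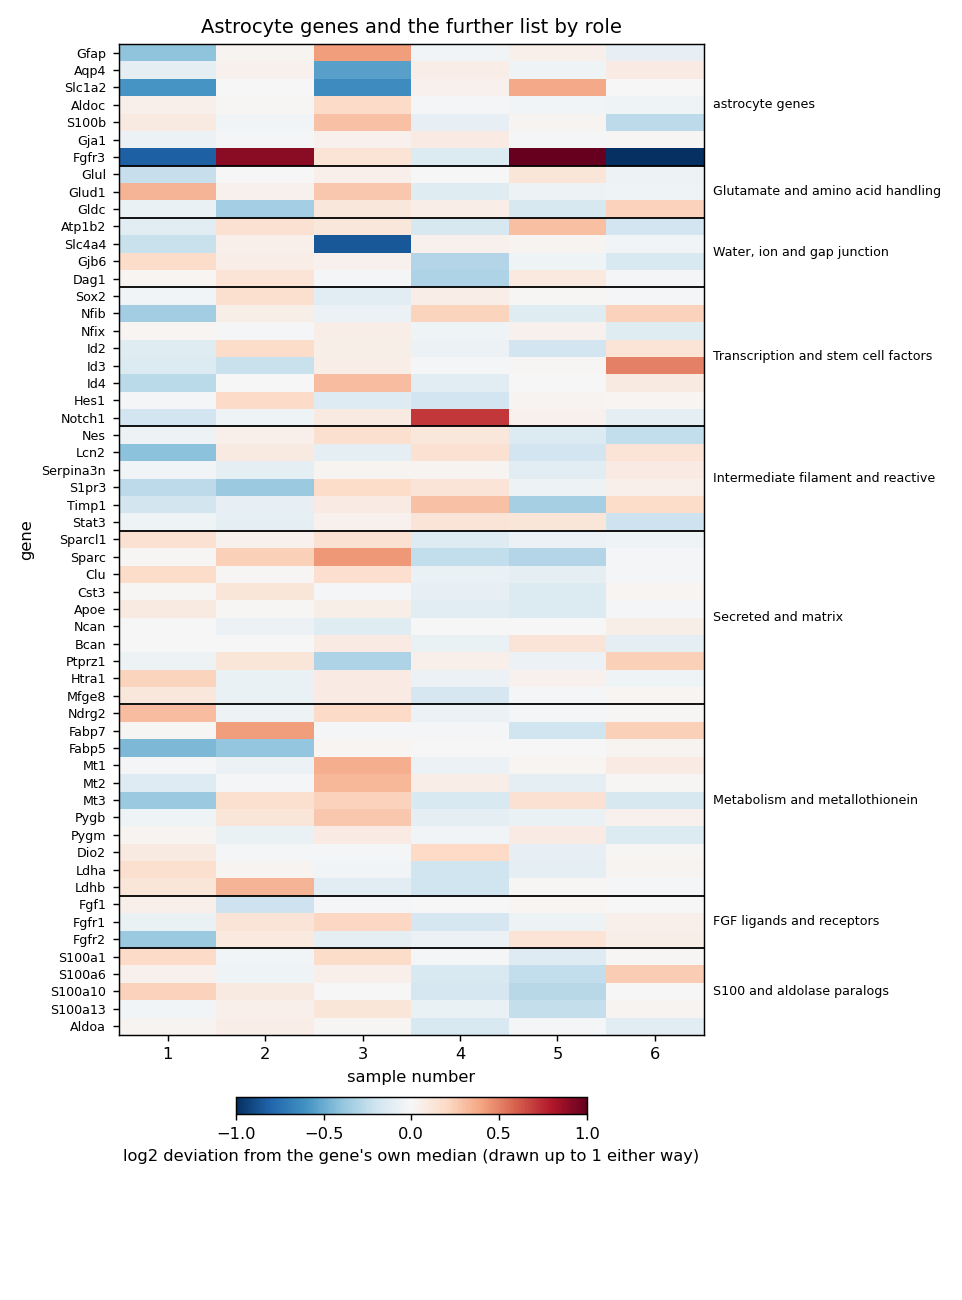
Log2 deviation of each gene from its own median (colour, red above and blue below, drawn up to 1 either way) in samples 1 to 6 (columns) for the 7 astrocyte genes and the 50 expressed genes of the further list (rows, by role). In the column of sample 3, Gfap (0.42) is red while Aqp4 (-0.54) and Slc1a2 (-0.63) are blue, and Fgfr3 runs past the colour scale in samples 5 and 6.

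Profiles most like those of Fgfr3 and Slc1a2, the members with the widest ranges, were sought among 4831 other expressed genes, by the mean absolute difference between log2 deviations over the 6 samples. For Slc1a2 the nearest were Cbl (0.09), Polr1b (0.09) and Tsc2 (0.10), where the median over all genes was 0.33. Cbl, for example, had signals of 61.5, 84.5, 46.2, 77.8, 101 and 78.5 in samples 1 to 6, low in samples 1 and 3 and high in sample 5. For Fgfr3 the nearest were Echs1 (0.47), Sprr2k (0.48) and Pspn (0.48), where the median was 0.72, and every other gene differed from it by more.

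The summary of a marker list in a sample is the median log2 deviation of its expressed genes. For the astrocyte genes it was -0.09, 0.01, 0.14, -0.01, 0.03 and -0.04 in samples 1 to 6, a span of 0.23. In sample 3 that median stood over deviations of both signs, from -0.63 for Slc1a2 to 0.42 for Gfap. Neurons had a span of 0.18 over 8 genes and microglia 0.19 over 6. Oligodendrocyte and myelin genes spanned 0.46, low in sample 1 (-0.28) and above 0 in sample 3 (0.13). Meningeal and fibroblast genes spanned 0.48, with -0.17 in sample 3. For endothelium 2 of 6 genes on the array were expressed, Cldn5 and Flt1, with a median deviation of -0.30 in sample 3. Both were lowest there, as were Aqp4 and 11.1% of the expressed genes. The endothelial genes not counted as expressed differed. Kdr was highest in sample 3, at 43.6, and lowest in sample 4, Pecam1 and Tek were lowest in sample 5, and Cdh5 was lowest in sample 1. Mural cell genes were at 0.61 in sample 2 and at -0.18 in sample 3. The choroid plexus genes Ttr and Folr1 spanned 4.64, with -0.57 in sample 3 and their lowest value in sample 1 (-2.92). Thalamus and habenula genes spanned 0.51, from -0.32 in sample 1 to 0.19 in sample 5. Oligodendrocyte precursors had 2 expressed genes, with -0.06 in sample 3, and ependyma had 1, Foxj1, with 0.26 there. The part of tissue composition in the astrocyte values was not tested.

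**Figure D5:**
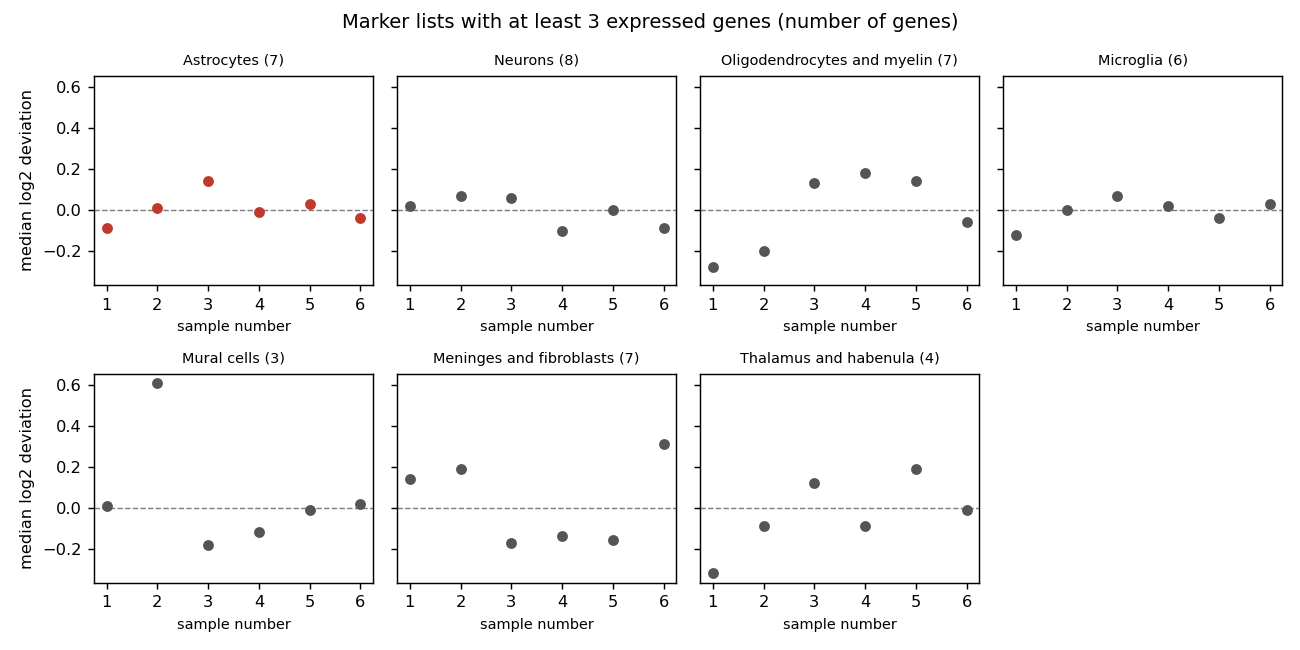
Median log2 deviation (vertical axis) of the expressed genes of each marker list with at least 3 such genes, in samples 1 to 6 (horizontal axis), each point 1 array and the number of genes in brackets. The astrocyte list (red) stays between -0.09 and 0.14, a narrower band than that of the myelin list, which runs from -0.28 to 0.18. A narrow band does not mean level genes, since in sample 3 the astrocyte genes ran from -0.63 (Slc1a2) to 0.42 (Gfap).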

How the data were processed

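Hippocampus RNA of 6 samples was measured on 6 one-colour arrays. The deposited table gives a signal intensity per probe set; the summary method, software and genome build are not stated in these sources. The deposited intensities have a mean of 150.0 between the 2nd and 98th percentile on every array, so they appear scaled. There were 0 missing values, and 0 of 15 column pairs were identical. No label gives a group, so no comparison between groups was tested, and no mean or SD treats the samples as replicates; the number of arrays limits the precision. Dixon's gap criterion was applied to the 6 values of single probe sets.

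With Python 3.11.15 and pandas 2.3.3, each array was divided by its median (66 control probe sets left out), values under 0.2 were set to 0.2, and log2 was taken. Probe sets with 1 gene symbol in the platform annotation (10833; 396 had several, 1193 none) were used, and a gene stands at its probe set with the highest mean log2 value. Gene identifiers matched RefSeq (GRCm38.p6) for 10817 and changed 0 symbols. The range computation was tested on simulated data.

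The members and lists were chosen with earlier results of these data known. Named were all member probe sets, the 2 widest expressed genes of each role, the whole reactive and FGF groups, and the 3 nearest profiles of the 2 widest members; others (Glul, Gjb6, Id4, Apoe, Aldoa, the metallothioneins, Pygb and Pygm) were added after their values were seen.

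Alternatives were quantile normalization, no further scaling, other floors, the mean of probe sets, no filter on level, and each sample left out.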

Additional observations from a re-analysis of the deposited data

Results flagged for a closer look

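Among the 11 astrocyte probe sets, 3 had 1 sample whose gap to the nearest other, as a share of the whole range over the 6 samples, was beyond Dixon's 95% critical value. Chance gives about 1 such case in 20. The gap was 0.719 of the range for Aqp4 102704_at and 0.686 for Aqp4 102703_s_at, both with sample 3 below the others. These are readings of 1 gene on the same arrays, so they are not separate cases. Of all expressed genes 5.89% had a sample apart in this way, and 0.599% had sample 3 apart below. The third was Fgfr3 160919_r_at, with sample 1 above the others and a gap of 0.664 of the range, on signals of 11.2 to 18.9 that all lay under the array median.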

How the results depend on the processing

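Over all alternatives, 67 of 73 summary values and 203 of 215 values of single genes or roles stayed within the limit set (1 SD over the 6 samples, or 1.5 times for counts). With no further scaling all 44 did. With 1 sample left out at a time, the median range of the 7 genes ran from 0.35 (without sample 3) to 0.62, and the number with a range over 1 from 1 (without sample 3 or sample 5) to 2. That number was also 1 with signals below the array median raised to it, where Fgfr3 remained past 1 with a range of 1.21. Quantile-normalized values gave the 7 genes a median range of 0.72, signals taken without division by the array median 0.69, and averaging each gene's probe sets 0.70. Quantile normalization moved the lowest Aldoc value to sample 2, giving 1 gene lowest there in place of 0. With the mean of probe sets 0 genes in place of 1 were highest in sample 4, since Gja1 was then highest in sample 3, and Fgfr3 ranged 1.07. Leaving out Fgfr3, an alternative chosen after seeing the data, gave a median range of 0.59. Without 1 sample at a time, the median range of the further list ran from 0.35 to 0.38. No paired analysis was possible because the labels give no groups. Detection calls were not used, so dim values have no known error.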
